A study of Mus musculus with 2 samples.

Results

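Proneural basic helix-loop-helix (bHLH) factors are the transcription factors that commit dividing neural progenitors to the neuronal fate and that help to set which kind of neuron is made. The 9 genes described here were chosen by name: Neurog1, Neurog2, Neurod1, Neurod4, Atoh1, Ptf1a, Olig1, Olig2 and Olig3, of 21937 gene features in the count matrices. All 9 were found, each under a single symbol. Single cells came from mouse embryos at E11.5 that carried EGFP linked to a DNA barcode, delivered by the piggyBac transposon. EGFP was under the control of CAG, a broadly active promoter. Cells were sorted only to remove debris, and those of 4 suspensions were labelled with multiplexing oligos and pooled into 1 gene expression library. Suspensions F0_8 and F0_9 came from 1 founder (F0) embryo each, F1_1 from 1 embryo of the F1 generation, and F1_mix (a pseudo-mosaic) from cells of F1 embryos that had been pooled. Each suspension carried the transgene, so no suspension without it served as a control, and the founders differed from the F1 embryos also in having been manipulated as fertilized eggs. The cells used were the 5678 in the authors' table with 1 of 16 cell type names, between 1310 and 1599 per suspension, with 16052917 to 19160116 gene UMIs (counted molecules) per suspension. No barcode was shared between suspensions.

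In the developing neural tube these factors work in sequence and in separate territories. Neurog1 and Neurog2 start neurogenesis in many progenitors and in sensory ganglia, and Neurod1 and Neurod4 act after them in cells that are becoming neurons. Atoh1, Ptf1a and Olig3 are known for dorsal progenitors, where Atoh1 leads to dI1 interneurons and Ptf1a to inhibitory interneurons. Olig1 and Olig2 are known for ventral progenitors that give motor neurons and later oligodendrocytes. The activating members pair with E proteins (Tcf3, Tcf4, Tcf12) and bind a short DNA motif, the E-box, while Id proteins hold the E proteins away from them. They also switch on Notch ligands such as Dll1, and Notch signalling through Hes factors in the neighbouring cells keeps those cells from differentiating.

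In the GRCm38 build the members lie on 6 chromosomes. Neurog1 is at chr13:56250478-56252180, Neurog2 at chr3:127632733-127635636, Neurod1 at chr2:79452637-79456636 and Neurod4 at chr10:130268152-130280254. Atoh1 is at chr6:64729125-64731245, Ptf1a at chr2:19445663-19447501 and Olig3 at chr10:19356539-19358604. Olig2 (chr16:91225550-91228677) and Olig1 (chr16:91269769-91271939) are neighbours, with 41091 bases between them.

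The E-box reads CANNTG, where N is any base, and a match on one strand is also a match on the other. It was searched on both strands in the 250 bases before each RefSeq start (GRCm38.p6). Of 27025 genes with such a stretch, 69.3% held at least 1 E-box, 14.7% held the CAGCTG form and 16.3% the CAGATG form. Of the members, 8 had a stretch, 2 of them (Neurod1 and Olig3) held an E-box and 0 held either form. Of the 13 genes listed as Notch ligands and genes of committing progenitors or as cell cycle exit genes and proneural targets, 8 had a stretch. CAGCTG stood in all 3 of the first list (Dll1, Dll3 and Hes6) and in 1 of 5 of the second (Gadd45g), while CAGATG stood in 0 of 3 and 1 of 5. The windows are shown because these genes recur in the comparisons that follow. The capitals mark the E-box, and each window has 30 bases on the strand of its gene. They are Neurod1 at chr2:79456857-79456886 (minus strand), Olig3 at chr10:19356497-19356526 (plus), Dll1 at chr17:15377047-15377076 (minus), Dll3 at chr7:28301786-28301815 (minus), Hes6 at chr1:91413355-91413384 (minus) and Gadd45g at chr13:51846608-51846637 (plus).
Neurod1: gggaagacCATATGgcgcatgccggggagg
Olig3: tctctggttttaCAACTGgggaagtgggtt
Dll1: tgcattaccataCAGCTGagcgcacaaaga
Dll3: aaatataagactccggcatccagCAGCTGc
Hes6: gctccgccccgcCAGCTGccagagacccgc
Gadd45g: gcagcctcccgcCAGCTGgcggcggcgcgc
A match describes the letters of the window and does not show that a factor was bound there.

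Most UMIs of every member came from cells that the authors named CNS Neuron (532 cells, median depth 10898.5 gene UMIs) or Neuronal Progenitor (597 cells, 13388). The share of a member's UMIs in these cell types ranged from 77.8% for Neurod1 to 97.9% for Atoh1. Adding Neuroectoderm/Glia (502 cells, 11437.5) and Ependymal Cell (137 cells, 12100) brought the range to 90.5% to 98.5%. The names were checked against marker lists of 5 genes each, summed as UMIs per 10000 gene UMIs. The CNS Neuron list (Tubb3, Elavl3, Elavl4, Dcx and Stmn2) stood at 64.8 in CNS Neuron and at 6.05 in Neuronal Progenitor. It was highest, at 79.5, in Neuroectoderm/Glia, whose own list (Fabp7, Slc1a3, Sox9, Sox2 and Ptprz1) stood at 1.27 there against 23.5 in Neuronal Progenitor. The data thus go against the name Neuroectoderm/Glia, and those cells carried neuronal rather than glial genes. The cell types had been made by clustering on these same genes, so levels between cell types are described without a test. Levels below are UMIs of the gene per 10000 gene UMIs of the cell type, with the founders F0_8 and F0_9 first and F1_1 and F1_mix after them, and are not compared between genes, because 3′ counts are not per length.

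Neurog1, which starts the sensory lineages, was at 0.711, 0.653, 1.18 and 1.06 in CNS Neuron, with a mean of 0.901 ± 0.258 (SD, n = 4 suspensions). In Neuronal Progenitor its level was 0.297, 0.429, 0.268 and 0.522, so every suspension was lower there than any was in CNS Neuron. Neurog2, the related factor of spinal cord and cortical progenitors, was at 1.37, 1.45, 1.92 and 2.02 in CNS Neuron (1.69 ± 0.325) and at 1.62, 1.30, 0.589 and 0.682 in Neuronal Progenitor (1.05 ± 0.493). The 2 cell types overlapped for Neurog2, since the founders in progenitors lay near their levels in neurons. In Neuroectoderm/Glia, Neurog2 was low, at 0.113, 0.110, 0.192 and 0.146, in 50 of 502 cells.

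Neurod1, a factor of differentiating neurons, was at 2.25, 1.74, 1.97 and 2.30 in CNS Neuron (2.07 ± 0.260). In Neuroectoderm/Glia it was at 0.505, 0.295, 0.515 and 0.525 (0.460 ± 0.110) and in Neuronal Progenitor at 0.0991, 0.106, 0.0835 and 0.437 (0.181 ± 0.171). Neurod1 was the member with the most UMIs in Neuroectoderm/Glia, 268 in all, and F1_mix alone was high among the progenitors. Neurod4, which acts beside it, was at 0.420, 0.544, 0.641 and 0.595 in CNS Neuron (0.550 ± 0.0956) and at 0.0313, 0.0557, 0.0967 and 0.153 in Neuronal Progenitor (0.0841 ± 0.0530). Its 2 ranges did not overlap, and a single UMI was counted in Neuroectoderm/Glia.

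Atoh1 was at 0.377, 0.369, 0.450 and 0.555 in CNS Neuron (0.438 ± 0.0864) and at 0.0365, 0.0446, 0.136 and 0.0562 in Neuronal Progenitor (0.0684 ± 0.0460). The ranges did not overlap. Ptf1a was at 0.0996, 0.121, 0.0916 and 0.109 in CNS Neuron (0.105 ± 0.0126) and at 0.0834, 0.0390, 0.123 and 0.108 in Neuronal Progenitor (0.0885 ± 0.0368), and these ranges did overlap. No UMI of Ptf1a was counted in the 502 cells of Neuroectoderm/Glia. By a floor of 3 cells this allows a share of cells with a UMI of up to 0.598%. It does not limit the share of expressing cells. Olig3 was at 0.270, 0.278, 0.328 and 0.447 in CNS Neuron (0.331 ± 0.0813) and at 0.0886, 0.123, 0.352 and 0.161 in Neuronal Progenitor (0.181 ± 0.118). F1_1 was the suspension in which progenitors reached the level of neurons.

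Olig2 and Olig1 were the members whose mean was highest among progenitors. Olig2 was at 0.0678, 0.139, 0.163 and 0.185 in Neuronal Progenitor (0.139 ± 0.0507) and at 0.0569, 0.157, 0.0229 and 0.0115 in CNS Neuron (0.0621 ± 0.0663). Olig1 was at 0.0261, 0.0167, 0.0352 and 0.0682 in Neuronal Progenitor (0.0365 ± 0.0224). The ranges of both genes overlapped between the cell types, and Olig1 rested on 49 UMIs in 29 cells of the whole library.

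**Figure D1:**
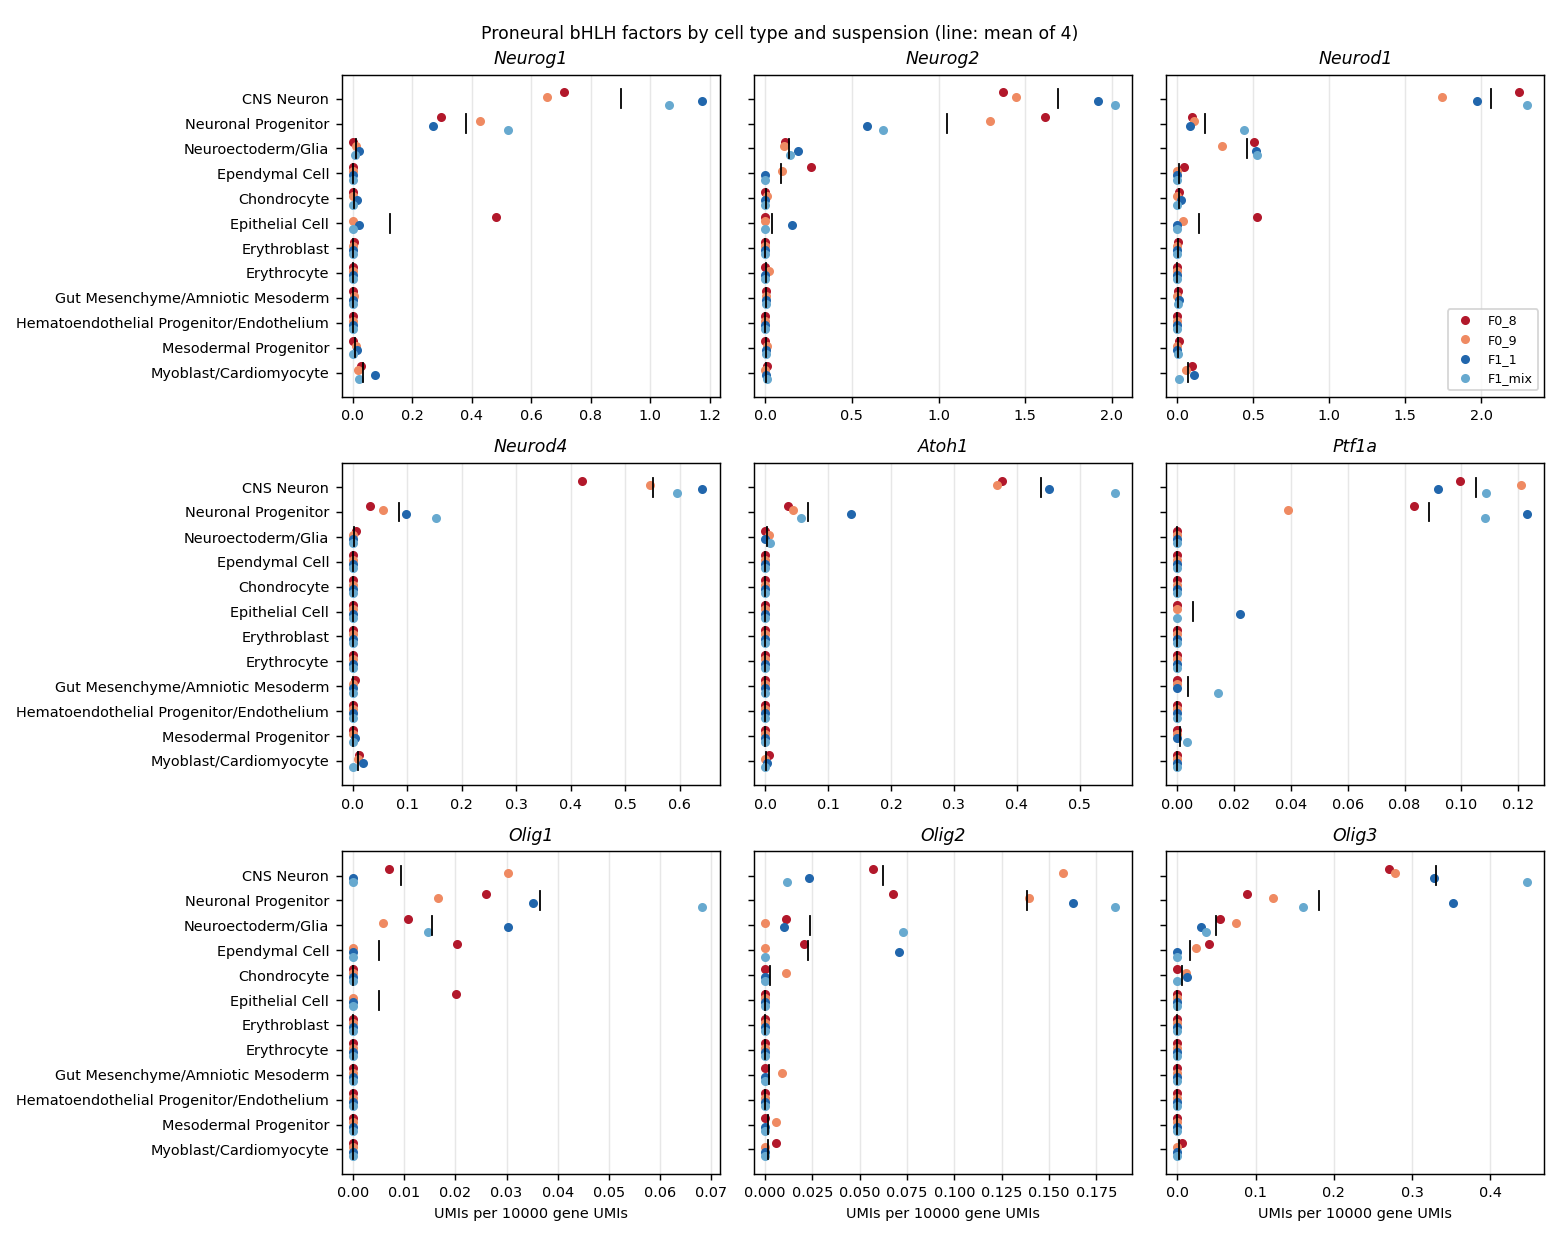
Level of each member in the 12 cell types of usual depth, as UMIs per 10000 gene UMIs on the horizontal axis (its scale differs between panels); points are the 4 suspensions and the line is their mean. Neurog1, Neurod1, Neurod4 and Atoh1 in CNS Neuron lie above every other cell type without overlap, whereas Olig2 is spread over CNS Neuron and Neuronal Progenitor.

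The share of cells with at least 1 UMI was higher in CNS Neuron than in Neuronal Progenitor for 6 members and lower for Ptf1a, Olig1 and Olig2. In CNS Neuron it was 45.5% for Neurod1 (95% Clopper-Pearson interval 41.2 to 49.8), 36.5% for Neurog2, 23.9% for Neurog1, 22.7% for Neurod4, 14.8% for Olig3, 8.46% for Atoh1, 3.95% for Ptf1a, 2.44% for Olig2 and 0.752% for Olig1. In Neuronal Progenitor the share was 24.1% for Neurog2, 12.2% for Neurog1, 8.88% for Olig3, 8.04% for Neurod1, 6.53% for Olig2, 5.36% for Ptf1a, 5.19% for Neurod4, 3.18% for Olig1 and 2.51% for Atoh1. Blood and endothelial cells, which should lack these genes, served as the background from free RNA. Erythroblasts were deeper (144 cells, median 29076 gene UMIs), and Neurog1 and Neurod1 each had a UMI in 0.694% of them. Neurog2 had a UMI in 1.67% of 60 erythrocytes (median 24289). In the 76 endothelial cells (median 17279.5) no UMI of a member was counted. The other members had none in the 144 erythroblasts. By a floor of 3 cells, which is not an exact interval, this allows a share of cells with a UMI of up to 2.08%. The share of Olig1 in CNS Neuron lay under that limit and that of Olig2, 2.44%, lay close to it. These cells thus do not show whether either was above background. These intervals cover counting error only.

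A cell often held several members. Of the 532 CNS Neuron cells, 404 (75.9%) held a UMI of at least 1 member and 130 (24.4%) of 3 or more. Among Neuronal Progenitor cells 270 of 597 (45.2%) held any, and 44 (7.37%) held 3 or more. In Neuroectoderm/Glia 160 of 502 cells (31.9%) held any member, and 1 cell held 3 or more. The commonest sets in CNS Neuron were Neurod1 alone (51 cells), Neurog2 alone (39), Neurog2 with Neurod1 (36), Neurog1 with Neurod1 and Neurod4 (30) and Atoh1 with Olig3 (22). In Neuronal Progenitor they were Neurog2 alone (61 cells), Olig2 alone (23), Olig3 alone (19) and Neurog1 with Neurog2 (18). A member without a UMI may still be expressed in a cell at this depth, so a member counted alone may have had others beside it. Free RNA and doublets can add UMIs, so the shares of cells with members are those with a UMI and bound the expressing cells in neither direction.

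To see which genes accompany each member, cells with a UMI of the member were compared with cells that had none, within the cell type that held most of its cells. Counts were summed on each side in each suspension and fitted with suspension as a block (edgeR quasi-likelihood test, Benjamini-Hochberg adjustment over all genes of the fit), and the member itself was left out of its own fit. The p-values of these fits measure only how the difference between the sides varied between the suspensions fitted, which share a library. Those for the generations, given later, measure only the spread between suspensions. The 8 fits also share cells, since the same CNS Neuron cell is placed with or without each member in turn. Each fit is therefore given on its own. Olig1 had too few cells for a fit. The median log2 difference over all genes lay between -0.0474 and 0.00175 in the 8 fits, and medians of the gene lists are read beside it. Cells with a member were usually deeper than those without (for Neurod4 12638 against 10350 gene UMIs at the median), and after thinning to 5000 gene UMIs per cell fewer genes passed the test, as given with the limits at the end.

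**Figure D2:**
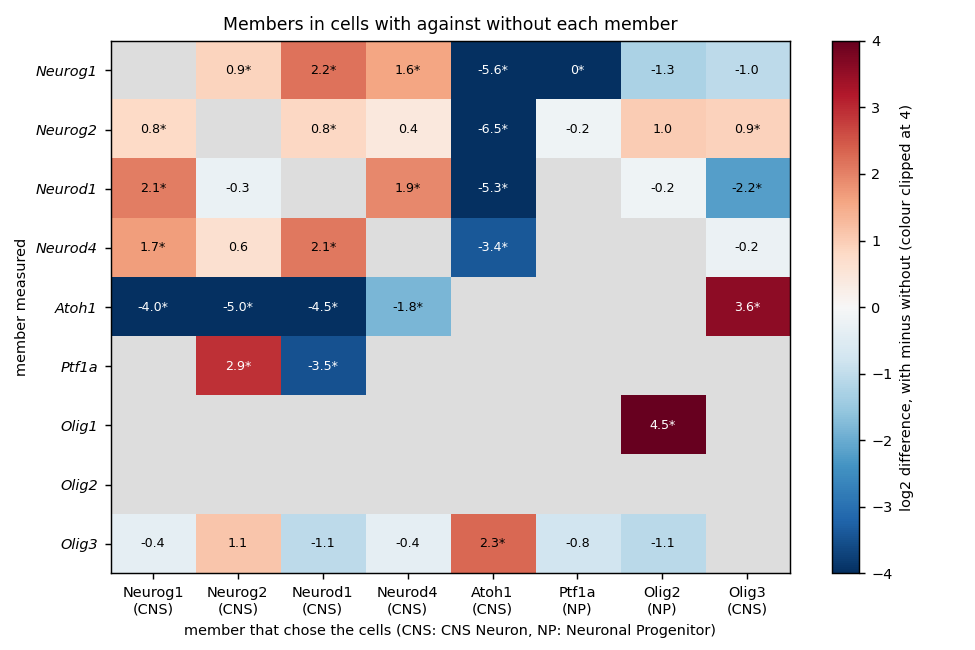
Log2 difference of each measured member (rows) between cells with and without the member that chose the cells (columns, CNS Neuron or Neuronal Progenitor); red is higher with, an asterisk marks an adjusted p under 0.05, 0 marks a gene without UMIs on the side with the member, and grey was not tested. Neurog1, Neurod1 and Neurod4 were higher in each other's cells, while Atoh1 and Olig3 were higher in each other's cells and the other 4 members tested were lower in Atoh1 cells.

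Neurog1 cells had more transcripts of the tested sensory ganglion genes and fewer of dorsal and inhibitory interneuron genes. In the fit of 127 CNS Neuron cells with Neurog1 against 405 without, 6.2% of 8239 genes were called higher and 5.63% lower. Of the 5 other members tested, 3 were higher and 1 lower. Neurod1 was at 4.67, 3.79, 4.50 and 4.88 in cells with Neurog1 and at 1.24, 1.15, 1.07 and 1.03 in those without, a log2 difference of 2.06 ± 0.12 (SE, adjusted p = 3.37e-07). Neurod4 was higher by 1.66 ± 0.26 and Neurog2 by 0.80 ± 0.15, in all 4 suspensions each. Atoh1 was lower by 3.97 on the log2 scale (fitted value -3.97), with 6 UMIs against 264.

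All 3 tested genes of the sensory ganglion list were higher in Neurog1 cells, with a median log2 difference of 1.68. Isl1 was also the only motor neuron list gene tested in the fits of Neurog1, Neurod1 and Neurod4. Pou4f1 is also on the dI1 list. Isl1, a factor of sensory and motor neurons, was at 7.47, 5.34, 3.45 and 5.78 with Neurog1 and at 1.60, 1.78, 0.961 and 0.873 without (2.17 ± 0.16, adjusted p = 2.28e-06). Pou4f1 was higher by 1.68 ± 0.16 and Eya2 by 0.76 ± 0.16. The suspensions did not overlap for Isl1 and Pou4f1, while Eya2 in F1_1 was at 2.95 with and 3.15 without Neurog1. Among the genes with the largest differences were Egflam (4.95 ± 0.53), Mrvi1 (4.71 ± 0.56), Kcnq5 (4.46 ± 0.23), a potassium channel subunit, and Inka1 (3.80 ± 0.49).

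Several groups were lower in the cells with Neurog1. Of the 25 tested Hox genes, which record position along the body axis, 15 were lower and 0 higher (median -1.03), led by Hoxc8 (-1.85 ± 0.23) and Hoxb1 (-1.71 ± 0.43). Of 8 tested genes of the dI4 and inhibitory list 5 were lower, and of the 5 dI1 genes 4 were lower while Pou4f1 was higher. Dlx2, a forebrain interneuron factor, had 1 UMI in the cells with Neurog1 and 174 in those without, a ratio of 0.0149 (0.000375 to 0.0841). Of the 7 pan-neuronal genes 4 were lower, among them Stmn2 (-0.93 ± 0.18) and Map2 (-0.73 ± 0.09), and 1 was higher, Elavl4 (0.52 ± 0.11). Of the 9 cell cycle exit genes and proneural targets 5 were higher and 1 lower, with Btg2 at 1.39 ± 0.11. Hes6, an inhibitor of Notch effectors whose promoter window is shown above, was at 7.30, 9.56, 10.1 and 8.86 with Neurog1 and at 3.06, 3.46, 3.91 and 3.79 without (1.40 ± 0.09, adjusted p = 5.92e-07).

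Neurod1 cells (242, against 290 without) carried other members and genes of the sensory ganglion list. In this fit 3.29% of 8138 genes were called higher and 2.16% lower. Of 6 members tested, 3 were higher and 2 lower. Neurog1 was at 1.24, 1.02, 1.81 and 1.66 with Neurod1 and at 0.184, 0.352, 0.352 and 0.391 without (2.16 ± 0.18, adjusted p = 1.54e-05). Neurod4 was higher by 2.10 ± 0.23 and Neurog2 by 0.82 ± 0.12, while Atoh1 was lower (-4.46 ± 0.41) and so was Ptf1a (-3.47 ± 0.52).

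Of the sensory ganglion list 2 of 3 tested genes were higher in Neurod1 cells and 0 lower (median 1.53). They were Isl1 (2.21 ± 0.12, adjusted p = 8.39e-07) and Pou4f1 (1.53 ± 0.19). Tlx2, a factor of neural crest derivatives, had 371 UMIs with Neurod1 and 10 without (5.17 ± 0.46). Ppp1r1c had 291 UMIs against 1, a ratio of 281 (50.0 to 1.11e+04), and Cdhr1 had 66 against 0, at least 21.2-fold higher. Of the neural progenitor genes 3 of 6 were lower and 0 higher, among them Sox2 (-1.57 ± 0.20). Gap43, a gene of growing axons, was higher by 1.68 ± 0.14. Of the Hox genes 15 of 25 were lower and 0 higher (median -0.81).

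Neurod4 cells (121 against 411) also held genes of the sensory ganglion list. In this fit 5.06% of 8044 genes were called higher and 4.25% lower. Neurod1 (1.92 ± 0.13) and Neurog1 (1.58 ± 0.19) were higher, Atoh1 was lower (-1.82 ± 0.33), and Neurog2 at 0.41 ± 0.19 did not pass the test (adjusted p = 0.253). All 3 tested sensory ganglion genes were higher (median 2.23), with Isl1 at 7.88, 6.92, 3.54 and 7.36 against 2.08, 0.911, 0.706 and 0.283 (2.93 ± 0.31, adjusted p = 0.000137). Tlx2 was higher by 3.99 ± 0.57. Of 27 tested Hox genes 5 were higher and 1 lower (median 0.15), led by Hoxa11 (3.63 ± 0.54), with 30 UMIs against 6, and Hoxd11 (2.88 ± 0.33). Of the inhibitory list 6 of 8 were lower: Gad1 had 4 UMIs with Neurod4 and 297 without (-4.67 ± 0.43), Gad2 had 9 and 745 (-4.92 ± 0.38), and Slc32a1, the vesicular transporter for GABA, had 1 and 184, a ratio of 0.0139 (0.000349 to 0.0782).

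Neurog2 cells (194 against 338) carried genes of progenitors and of cell cycle exit. Here 1.91% of 8043 genes were called higher and 1.57% lower. Of the 6 members tested 2 were higher and 1 lower. Ptf1a was at 0.216, 0.222, 0.225 and 0.318 with Neurog2 and at 0.0425, 0.0719, 0.0122 and 0 without (2.93 ± 0.55, adjusted p = 0.012), although the call did not hold without F1_mix. Neurog1 was higher by 0.88 ± 0.21 (adjusted p = 0.0439), a call lost with DESeq2 and without F0_9, F1_1 or F1_mix, and in F0_8 it was at 0.690 with against 0.722 without. Atoh1 had 4 UMIs with Neurog2 and 266 without (-5.01 ± 0.48). Neurod1 was at 1.66, 0.834, 2.67 and 2.11 with and at 2.54, 2.18, 1.55 and 2.40 without, which did not differ by the test (-0.28 ± 0.24, adjusted p = 0.707).

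Genes of cell cycle exit accompanied Neurog2, as did the Notch ligand Dll1. Of the 9 cell cycle exit genes and proneural targets 7 were higher in Neurog2 cells and 1 lower (median 0.48). Gadd45g, a growth arrest gene, was at 6.17, 8.04, 9.60 and 9.14 with Neurog2 and at 3.84, 4.37, 5.03 and 4.84 without (0.88 ± 0.07, adjusted p = 7.33e-05), and the groups did not overlap. Btg2 was higher by 0.84 ± 0.09 and Cdkn1c, a cell cycle inhibitor, by 0.83 ± 0.10. Of the Notch ligands and genes of committing progenitors 1 of 4 was higher and 0 lower, and of the 2 tested Notch receptors and effectors none passed. The gene that was higher, Dll1, was at 0.561, 1.22, 1.67 and 1.01 with and at 0.265, 0.629, 0.549 and 0.539 without (1.16 ± 0.16, adjusted p = 0.00215). Of the E proteins 2 of 3 were higher, with Tcf4 at 0.63 ± 0.07, and of the Id genes 2 of 4 were lower, namely Id4 and Id3. Of 6 tested neural progenitor genes 3 were higher, led by Fabp7 (1.67 ± 0.16), and Pax3, a dorsal factor, was higher by 1.91 ± 0.23.

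Large differences toward Neurog2 cells, beside that of Ptf1a, were those of Dmrta2 (4.27 ± 0.34), a factor of cortical progenitors, Eomes (3.11 ± 0.47), which marks intermediate progenitors of the cortex, Rspo3 (3.05 ± 0.61) and Kirrel2 (2.84 ± 0.39). The call for Rspo3 was lost without F0_8, F0_9 or F1_mix, and that for Eomes with DESeq2. Dlx5, a factor of forebrain interneurons, had no UMI with Neurog2 and 146 without, at least 25.3-fold lower against a floor of 3 counts over the group. Of the sensory ganglion list 2 of 3 were lower and 0 higher (median -0.77), with Isl1 at -1.59 ± 0.35.

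**Figure D3:**
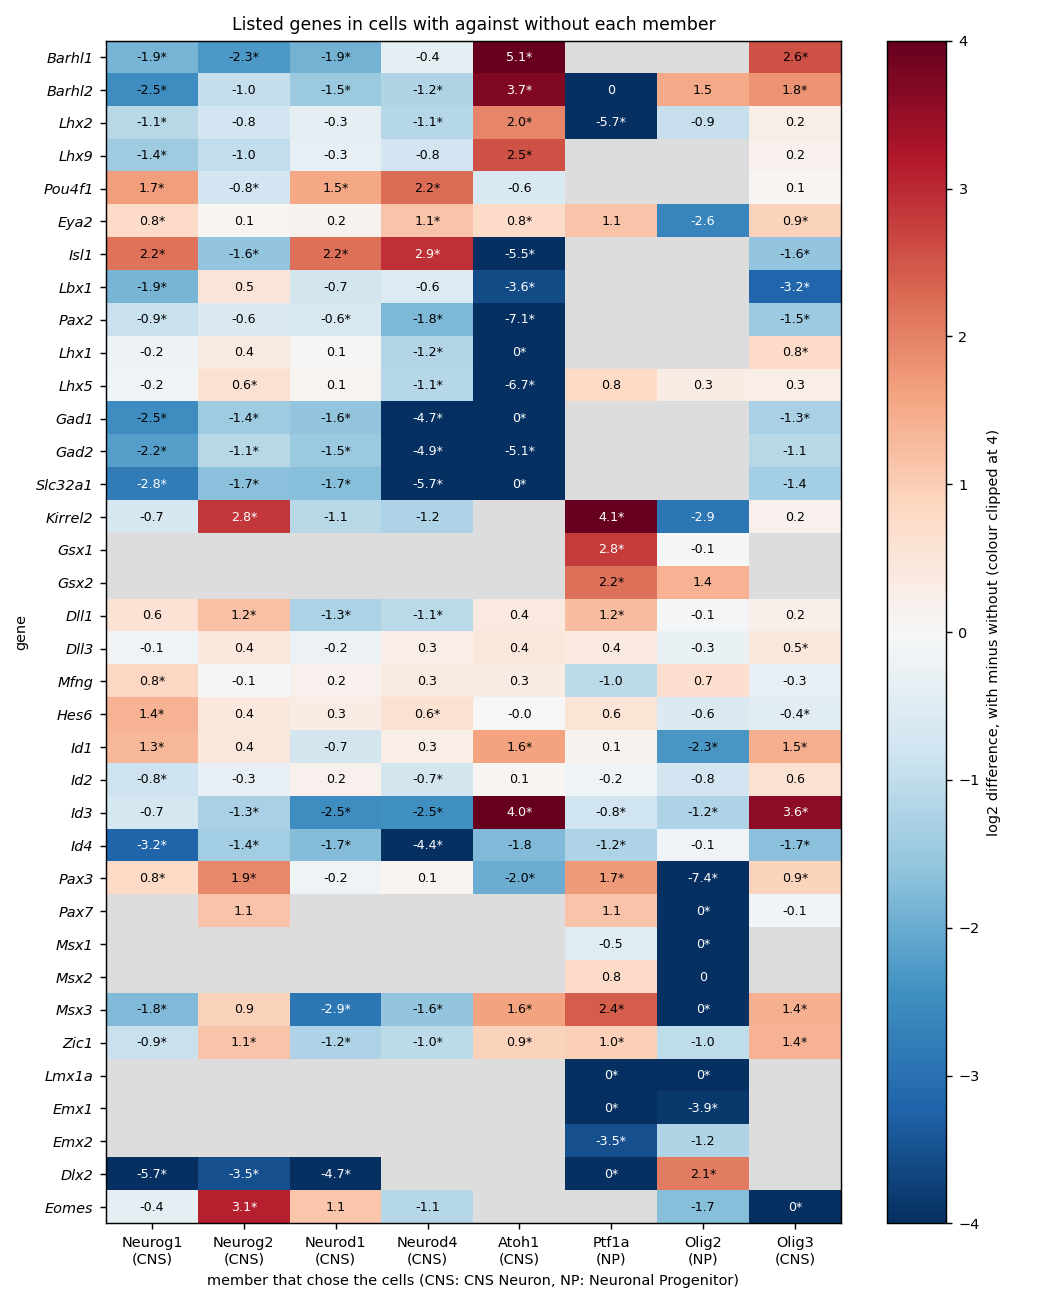
Log2 difference of genes from the lists (rows) between cells with and without each member (columns); signs and colours are as in the plot of the members, and colours are clipped at 4. The sensory genes Isl1 and Pou4f1 are red under Neurog1, Neurod1 and Neurod4, Barhl1 and Barhl2 are red under Atoh1 and Olig3, and Msx3 and Pax3 are higher under Ptf1a and at or near 0 UMIs under Olig2.

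Atoh1 cells carried the genes of dI1 interneurons. In the fit of 45 CNS Neuron cells with Atoh1 against 487 without, 2.91% of 7903 genes were called higher and 3.45% lower. Of the dI1 list 4 of 5 genes were higher (median 2.54). Barhl1 was at 4.38, 4.13, 3.44 and 4.64 with Atoh1 and at 0.122, 0.0328, 0.145 and 0.191 without (5.12 ± 0.25, adjusted p = 7.76e-13), and Barhl2 (3.70 ± 0.24), Lhx9 (2.54 ± 0.22) and Lhx2 (1.96 ± 0.14) likewise did not overlap. Pou4f1, the other gene of the list, was at -0.61 ± 0.23 and did not pass (adjusted p = 0.158). Sema7a (4.04 ± 0.42), an axon guidance protein, Rab15 (4.0 ± 0.42) and Arhgap6 (3.86 ± 0.42) were also higher.

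Neurog1, Neurog2, Neurod1 and Neurod4 were nearly absent from Atoh1 cells. Neurog2 had 1 UMI in the 45 cells and 1034 in the others, a ratio of 0.0100 (0.000254 to 0.0561). Neurog1 also had 1 UMI (0.0190, 0.00048 to 0.106), while Neurod1 had 3 (0.0247, 0.00509 to 0.0724) and Neurod4 had 3 (0.0933, 0.0191 to 0.275). All 4 were called lower. Ptf1a, Olig1 and Olig2 were not tested in this fit, and had 0 UMIs in the 45 cells and 65, 6 and 39 in the others. Olig3 was at 0.417, 0.702, 1.64 and 1.90 with Atoh1 and at 0.260, 0.243, 0.179 and 0.281 without (2.31 ± 0.33, adjusted p = 2.58e-05), and 27 of the 45 cells held it. In Neuronal Progenitor 13 of 15 cells with Atoh1 held Olig3, against 40 of 582 without, too few cells for a fit.

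All 7 tested genes of the dI4 and inhibitory list were lower in Atoh1 cells, with a median of -7.10, or -5.08 with the genes at 0 set to their bound. Lhx1 had no UMI against 1244 (at least 39.9-fold lower), and Pax2 had 1 against 1551, a ratio of 0.0067 (0.000169 to 0.0374). Otp, a factor of ventral and hypothalamic neurons, had 0 against 563 (at least 18.1-fold lower). Of the Id genes 2 of 4 were higher: Id3 was at 1.04, 2.26, 5.38 and 4.70 with Atoh1 and at 0.137, 0.216, 0.306 and 0.153 without (4.04 ± 0.25, adjusted p = 5.52e-11), and Id1 was higher by 1.62 ± 0.40 although in F0_9 it was at 0.234 with against 0.498 without. Of the 9 cell cycle exit genes and proneural targets 3 were higher, Rnd2 (1.28 ± 0.16), Ebf1 (0.92 ± 0.10) and Ebf3 (0.70 ± 0.13), and 1 was lower, Cdkn1c (-1.49 ± 0.12). Of 25 Hox genes 7 were higher and 0 lower (median 0.44).

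Olig3 cells (79 against 453 of CNS Neuron) carried Atoh1 and dorsal factors. In this fit 2% of 7966 genes were called higher and 2% lower. Atoh1 was at 2.21, 1.40, 1.83 and 2.40 with Olig3 and at 0.0905, 0.185, 0.191 and 0.186 without (3.58 ± 0.23, adjusted p = 5.35e-08). Neurog2 was also higher (0.91 ± 0.13), whereas Neurod1 was lower, at 0.526, 0.519, 0.386 and 0.548 with against 2.52, 1.96, 2.27 and 2.65 without (-2.21 ± 0.18). These 3 members were those called, of 5 tested. Of the 79 cells 27 held Atoh1.

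Dorsal factors were higher in Olig3 cells, with 3 of 4 tested genes of the list called (median 1.15). They were Msx3 (1.43 ± 0.20), Zic1 (1.40 ± 0.24) and Pax3 (0.90 ± 0.20). Of the Id genes 2 of 4 were higher and 1 lower (median 1.03), with Id3 higher by 3.58 ± 0.28. Of the 5 dI1 genes 2 were higher and 0 lower (median 0.24), Barhl1 by 2.56 ± 0.24 and Barhl2 by 1.81 ± 0.26. Angpt1 (2.74 ± 0.42) and Zic5 (2.35 ± 0.36) had large differences too. Ppp1r1c and Ass1 had no UMI in these cells (at least 17.7-fold and 16.5-fold lower). Of 8 tested genes of the dI4 and inhibitory list 3 were lower, Lbx1 (-3.19 ± 0.55), Pax2 (-1.45 ± 0.15) and Gad1 (-1.30 ± 0.32), and 1 was higher, Lhx1 (0.76 ± 0.15). Of 26 Hox genes 8 were higher and 0 lower (median 0.69).

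Ptf1a was fitted in Neuronal Progenitor, where 29 cells with it and 434 without came from F0_8, F1_1 and F1_mix; F0_9 had too few cells and was left out. Of 9208 genes, 0.912% were called higher and 1.16% lower. Values here are in the order F0_8, F1_1 and F1_mix. Among the genes called higher, the largest differences were those of Nphs1 (5.11 ± 0.70) and Kirrel2 (4.13 ± 0.48), which are neighbouring genes of adhesion proteins, Tfap2b (3.84 ± 0.43), a factor of inhibitory neurons, Prdm13 (3.68 ± 0.50), a repressor of the dorsal spinal cord, and Ccbe1 (3.45 ± 0.74), whose call was lost without F0_8. Kirrel2 was at 2.27, 0.980 and 0.784 with Ptf1a and at 0.0268, 0.0869 and 0.0692 without (adjusted p = 8.57e-09), and Prdm13 was at 1.89, 1.13 and 0.392 against 0.0268, 0.111 and 0.0692. Both genes were separate in every suspension, with F0_8 highest.

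Of the dI4 and inhibitory list 3 of 4 tested genes were higher in Ptf1a cells and 0 lower (median 2.50), namely Kirrel2, Gsx1 (2.80 ± 0.49) and Gsx2 (2.20 ± 0.53). Of the dorsal list 3 of 7 genes were higher and 1 lower, with Msx3 at 2.42 ± 0.25 and Pax3 at 1.71 ± 0.18. Dll1 was higher by 1.25 ± 0.29 and Gadd45g by 1.51 ± 0.22, while Hes5, a Notch effector, was lower (-0.85 ± 0.22). Of 23 Hox genes 11 were higher and 0 lower (median 1.47).

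All 3 tested forebrain genes were lower in Ptf1a cells, with a median of -7.57, or -2.19 with the genes at 0 set to their bound. Emx1 had no UMI against 196 (at least 4.55-fold lower). Of the dI1 list, Lhx2 had 1 against 1090, a ratio of 0.0132 (0.000333 to 0.0735). Rspo3, which is made at the dorsal midline, had no UMI against 637 (at least 14.8-fold lower). Of the 3 members tested Neurog1 had no UMI in the 29 cells and 248 in the others (at least 5.76-fold lower), a call lost with DESeq2 and without F1_mix. Neurog2 was at 0.947, 0.539 and 0.784 against 1.64, 0.594 and 0.674 (-0.17 ± 0.31, adjusted p = 0.982), and Olig3 did not pass either (adjusted p = 0.908). In CNS Neuron, where the 21 cells with Ptf1a were too few for a fit, 14 of them held Neurog2, against 180 of 511 others.

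Olig2 cells (39 against 558 of Neuronal Progenitor) carried Olig1 and fewer transcripts of dorsal factors and Hox genes. Of the ventral patterning list 2 genes were tested, Nkx2-2 (1.93 ± 0.53, adjusted p = 0.0865) and Shh (1.10 ± 0.54, adjusted p = 0.685), and neither passed, and no gene of the motor neuron or ventral interneuron lists had enough counts. Of 9113 genes, 0.527% were called higher and 0.79% lower. Olig1, the neighbouring gene, was at 0.119, 0.129, 0.328 and 0.594 with Olig2 and at 0.0218, 0.0116, 0.00956 and 0.0133 without (4.47 ± 0.66, adjusted p = 0.000225), and 9 of the 39 cells held it against 10 of 558. This rests on 33 UMIs of Olig1. Neurog2 was at 0, 2.33, 2.19 and 1.74 with Olig2 and at 1.69, 1.25, 0.449 and 0.572 without, a difference of 1.02 ± 0.40 that did not pass (adjusted p = 0.429).

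Of the dorsal list 5 of 7 tested genes were lower in Olig2 cells and 0 higher, with a median of -7.51, or -2.88 with the genes at 0 set to their bound. Msx3 had no UMI against 637 (at least 15.6-fold lower), Pax7 had none against 300 (at least 7.34-fold lower), and Pax3 had 1 against 2392, a ratio of 0.00569 (0.000144 to 0.0317). Fgf17, a growth factor of the midbrain and hindbrain border, had none against 311 (at least 7.61-fold lower). Of 20 Hox genes 10 were lower and 0 higher, with a median of -2.88, or -2.56 with the genes at 0 set to their bound. Hoxb9 had 1 UMI against 532, a ratio of 0.0256 (0.000647 to 0.143).

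The genes that were higher with Olig2 included Foxd1 (3.17 ± 0.36) and Nkx2-1 (2.76 ± 0.34), which mark the ventral forebrain and hypothalamus, and Brinp1 (2.72 ± 0.59). Nkx2-1 was at 1.79, 2.33, 0.710 and 1.23 with Olig2 and at 0.109, 0.361, 0.263 and 0.133 without (adjusted p = 1.79e-05). The call for Brinp1 was lost without F0_9. Of the 5 tested forebrain genes 2 were higher, Dlx1 (2.63 ± 0.55) and Dlx2 (2.07 ± 0.37), and 1 was lower. That gene, Emx1, a dorsal forebrain factor, had 1 UMI against 274, a ratio of 0.0497 (0.00125 to 0.279). Of 8 neural progenitor genes 1 was higher, Nes (1.17 ± 0.15), and of 6 Notch receptors and effectors 1 was higher, Hes5 (0.78 ± 0.15). Of 13 cell cycle genes 0 were higher and 1 lower.

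**Figure D4:**
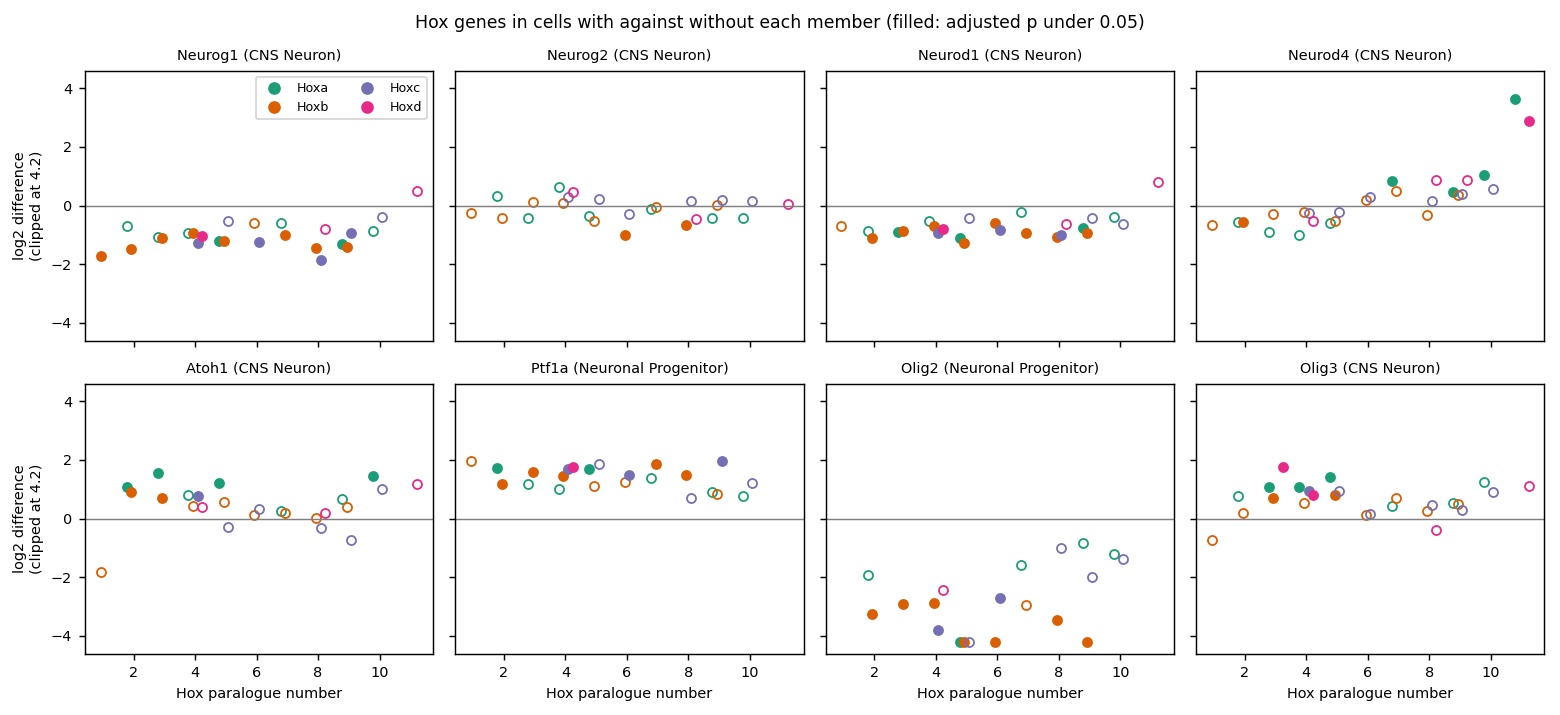
Log2 difference of Hox genes between cells with and without each member, by paralogue number on the horizontal axis and by cluster in colour; filled points have an adjusted p under 0.05, and points at the lower edge lie there or below, genes with 0 UMIs in Olig2 cells among them. All called Hox genes are below 0 under Neurog1, Neurod1 and Olig2 and above 0 under Atoh1, Ptf1a and Olig3, and Hoxa11 and Hoxd11 stand highest under Neurod4.

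The generations were then compared within each cell type, founders (F0_8 and F0_9) against F1 (F1_1 and F1_mix), with the same test on counts summed per suspension. Of 117 pairs of a member and 1 of 13 cell types, 18 had enough counts, in 4 cell types. Of these 18 pairs 15 had lower fitted values in the founders, and 2 passed the test.

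In CNS Neuron 77 of 9916 genes were called, 0.777%, of which 0.303% of all genes lower in the founders. Neurog1, whose levels are given above, was lower in the founders by 0.73 on the log2 scale (fitted value -0.73 ± 0.14, adjusted p = 0.0417). The call was lost with DESeq2 (adjusted p = 0.503) and without F0_8 (0.380), F0_9 (0.112) or F1_1 (0.104). The share of cells with Neurog1 was 23.8% and 19.2% in the founders and 22.7% and 29.7% in F1_1 and F1_mix. Neurog2 (-0.50 ± 0.11, adjusted p = 0.0716), Olig3 (-0.53 ± 0.23), Atoh1 (-0.46 ± 0.19), Neurod4 (-0.36 ± 0.18), Neurod1 (-0.12 ± 0.13) and Ptf1a (0.12 ± 0.37) did not pass. With no filter on low counts Neurog2 passed (-0.49, adjusted p = 0.00588). The levels of 5 of the 7 tested members did not overlap between the generations, where 39.5% of all genes did not, and the median difference of the members was -0.46 against -0.0044 over all genes.

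In Neuronal Progenitor 70 of 10668 genes were called, 0.656%, of which 0.45% of all genes higher in the founders. Neurog2 went the other way there, with 1.62 and 1.30 in the founders against 0.589 and 0.682 in F1, a difference of 1.16 ± 0.14 (adjusted p = 0.0198, and 0.000176 with DESeq2). Without F0_8 the difference was 0.99 and the call was lost (adjusted p = 0.0664). The share of cells with Neurog2 was 34.0% and 25.4% in the founders and 17.3% and 20.5% in F1. The other 7 members tested had lower fitted values in the founders and did not pass the test: Neurod4 (-1.56 ± 0.42), Neurod1 (-1.40 ± 0.64), Olig3 (-1.30 ± 0.40), Atoh1 (-1.26 ± 0.52), Ptf1a (-0.93 ± 0.39), Olig2 (-0.79 ± 0.34) and Neurog1 (-0.17 ± 0.30), with adjusted p between 0.166 and 0.858. Levels of 6 of the 8 did not overlap between the generations, where 45% of all genes did not, and the members' median was -1.10 against -0.0050 over all genes.

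A fit of both cell types together tested whether the difference between the generations differed between them. It was chosen after the values had been seen. Of 11076 genes 12 passed, 0.108%, and Neurog2 was 1 of them, with a difference of 1.64 ± 0.17 (adjusted p = 0.00159). Of the 8 members tested no other passed, and Olig2 was nearest (-3.42 ± 0.64, adjusted p = 0.0788).

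Forebrain genes moved with Neurog2 in the progenitors. Of 5 tested forebrain genes 3 were higher in the founders: Emx1 (2.25 ± 0.28, adjusted p = 0.0198), Emx2 (1.66 ± 0.21, adjusted p = 0.0198) and Eomes (1.61 ± 0.25, adjusted p = 0.0332). Lhx2, which is on the dI1 list and is also a cortical factor, was higher by 1.67 ± 0.23, Nfia, a gliogenic factor, by 1.0 ± 0.12, and the E protein gene Tcf4 by 0.60 ± 0.07. Cells with a UMI of Emx1 or Emx2 made up 37.4% and 20.9% of the progenitors in the founders and 11.3% and 13.3% in F1. Neurog2 was at 2.38 and 3.61 in these cells in the founders and at 1.84 and 0.313 in F1. The F1 values rest on 50 and 10 UMIs in 17 and 22 cells. In progenitors without such a UMI Neurog2 was at 1.10 and 0.602 in the founders and at 0.419 and 0.736 in F1.

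In CNS Neuron, of 6 tested genes of the list of other neural bHLH factors, 2 were higher and 1 lower (median -0.28). The founders were higher in Neurod6 (3.09 ± 0.53) and Neurod2 (2.51 ± 0.37), bHLH factors of cortical neurons, and in Nfia (1.89 ± 0.21). They were lower in Bhlhe22 (-1.30 ± 0.24), a bHLH repressor of dorsal interneurons, and in Dll3 (-0.63 ± 0.10), the Notch pathway gene whose window is shown above, with adjusted p between 0.00334 and 0.0413. In neurons without a UMI of Emx1 or Emx2, Neurog1 was at 0.781 and 0.675 in the founders and at 1.19 and 1.05 in F1. In the few neurons with such a UMI (1 in F1_1 and 9 to 15 in the other suspensions) Neurog1 was at 0.228, 0.356, 0 and 1.25. Neurog2 was at 2.10, 2.67, 1.71 and 4.73 in the neurons with such a UMI. In those without, Neurog2 was at 1.27, 1.36, 1.92 and 1.84. Whether the embryos differed in stage or in the parts that were recovered was not tested, and such differences cannot be told apart from generation with 2 suspensions each.

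**Figure D5:**
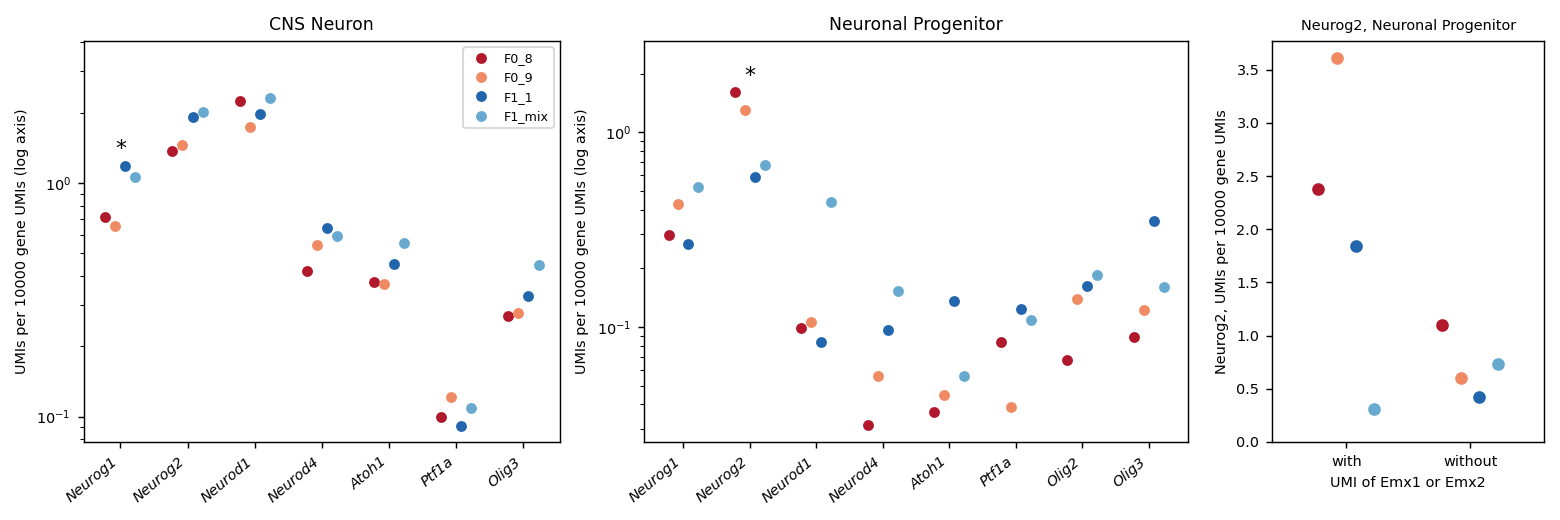
Levels of the tested members in CNS Neuron (left) and Neuronal Progenitor (middle) per suspension on log axes, with an asterisk at an adjusted p under 0.05, and Neurog2 in Neuronal Progenitor cells with and without a UMI of Emx1 or Emx2 (right, linear axis). Neurog1 is lower in both founders in neurons, and Neurog2 is higher in both founders in progenitors. In the right panel F1_mix in the cells with such a UMI rests on 10 UMIs in 22 cells.

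In Neuroectoderm/Glia 114 of 9901 genes were called, 1.15%, and of the members only Neurog2 (-0.58, adjusted p = 0.471) and Neurod1 (-0.38, adjusted p = 0.571) could be tested. Neither passed. In Myoblast/Cardiomyocyte, where 0 of 11260 genes were called by edgeR, Neurod1 was at 0.37 (adjusted p = 0.927).

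Members outside the neural types came from few cells. In Myoblast/Cardiomyocyte 24 of 644 cells had a UMI of Neurog1 or Neurod1, from 4 to 8 per suspension, with 48 UMIs of Neurog1, 77 of Neurod1 and 12 of Neurod4. Of these, 1 cell of F1_1 held 22 UMIs of Neurog1, 25 of Neurod1 and 8 of Neurod4, with pan-neuronal genes at 8.08. Another cell of F1_1 held 18 of Neurod1, with pan-neuronal genes at 58.4. In the sum of the 24 cells pan-neuronal genes stood at 8.61, against 1.62 in the other cells of that type. The muscle markers stood at 3.75 against 4.23. In Epithelial Cell 5 cells held all 26 UMIs of Neurog1 and 28 of Neurod1, with pan-neuronal genes at 9.34 in the sum of these cells against 1.77. A pair of F0_8 cells held most of them, with 13 and 11 UMIs of Neurog1, 21 and 5 of Neurod1, and pan-neuronal genes at 31.4 and 18.2, while the cell of F1_1 was at 2.48. These cells were chosen by member UMIs, and whether they were doublets was not tested. In Ependymal Cell the 17 UMIs of Neurog2 came from 7 cells, all of founders.

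Across the 12 cell types of usual depth in each suspension, the genes with the pattern most like each member's were found by Pearson's r of log2(level + 0.1). The 48 points share a library and 4 suspensions, so r is a description. For Neurog1 they were Zbtb18 (0.92), Gadd45g (0.90) and Rhbdl3 (0.89), and for Neurog2 Dll1 (0.94) and Rhbdl3 (0.93). For Neurod1 they were St18 (0.96), Dlgap3 and Insm1 (0.95 each), and for Neurod4 Atoh1 (0.99), Sstr2 and Tfap2e (0.93 each). For Ptf1a they were Kirrel2 (0.95), Prdm13 (0.93) and Olig3 (0.92), and for Olig3 Glra1, Neurog2 (0.93 each) and Prdm13 (0.92). Olig1 was most like Olig2 (0.79), and Olig2 most like Sox1 (0.85), Hes5 (0.83) and Msx3 (0.82). Msx3 nevertheless had no UMI in the Neuronal Progenitor cells with Olig2. The r of Neurod4 and Atoh1 rests mainly on CNS Neuron, where their means were 0.550 and 0.438. In Neuronal Progenitor, the next of these cell types, they were 0.0841 and 0.0684, under the added 0.1. Within CNS Neuron each was lower in the cells with the other.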

How the data were processed

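The authors deposited UMI counts per gene and cell, made with Cell Ranger (release 7.2.0 in the headers, an earlier release in the methods) against GRCm38 (mm10) with EGFP added. Cell types, doublet removal and suspension calls are the authors'. The deposited counts were used without the ambient RNA correction that the methods name, and 20 columns of the cell table were not used. Generations follow the series description. Counts were summed per suspension and tested with edgeR 4.0.16 (TMM, filterByExpr, quasi-likelihood, adjusted p under 0.05), for founders against F1 in cell types with 20 or more cells per suspension, and for cells with against without a member where 5 or more cells stood on each side in at least 3 suspensions. Bounds use a floor of 3 counts, and ratios and levels exact 95% intervals. DESeq2 1.42.0, no filter, thinning, no block and leaving out each suspension were alternatives. Simulated counts for CNS Neuron between the generations gave back 19% of genes changed 2-fold and 94% of those changed 4-fold, so smaller changes can be missed. Members and lists were chosen with earlier results of these data known. Named genes were the 5 largest higher and 2 largest lower per member with 1 sign in every suspension, genes of the lists, and the 3 most like each member. Some genes that these rules name are not reported here and were left out of the lists. The interaction fit and the forebrain split were added after seeing the data. Python 3.11.15, R 4.3.3, numpy 2.4.6, pandas 2.3.3, scipy 1.17.1 and matplotlib 3.10.9 were used.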

Additional observations from a re-analysis of the deposited data

Results flagged for a closer look

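Neurod1 in Neuronal Progenitor had F1_mix far above the others, at 0.437 against 0.0835 to 0.106, with a gap of 0.937 of the whole range. Neurod1 in Neuroectoderm/Glia had F0_9 far below the others, at 0.295 against 0.505 to 0.525, a gap of 0.914 of the range. Of the groups of 4 suspensions, 20 were examined in this way, and chance flags about 1 in 20. The founder minus F1 difference of Neurog2 was larger in Neuronal Progenitor than in CNS Neuron by 1.64 on the log2 scale, by the test of the difference itself.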

How the results depend on the processing

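The level and share of each member and the calls rest on few UMIs for Olig1, Ptf1a and Olig2. Of members called between the generations there were 2, against 1 with DESeq2, 9 with no filter on low counts and 0 to 4 with a suspension left out (0 without F0_8, 4 without F1_mix). Genes called with against without Neurog1, Neurog2, Neurod1, Neurod4, Atoh1, Ptf1a, Olig2 and Olig3 numbered 975, 280, 444, 749, 503, 191, 120 and 318. With DESeq2 they were 566 (Neurog1), 109 (Neurog2), 197 (Neurod1), 336 (Neurod4), 313 (Atoh1), 55 (Ptf1a) and 147 (Olig3). With no filter they were 602 (Neurog2), 864 (Neurod1), 203 (Olig2) and 571 (Olig3). Thinned to 5000 UMIs they were 402 (Neurog1), 186 (Neurod1), 137 (Neurod4), 218 (Atoh1) and 117 (Olig3), and Ptf1a and Olig2 could not be fitted. With no replicate block they were 52 (Ptf1a), 75 (Olig2) and 201 (Olig3). Leaving out a suspension gave 698 to 923 (Neurog1), 114 to 322 (Neurog2, lowest without F1_mix), 342 to 406 (Neurod1), 383 to 633 (Neurod4, lowest without F0_9), 356 to 431 (Atoh1), 76 to 106 (Ptf1a, lowest without F0_8), 68 to 118 (Olig2, lowest without F0_9) and 199 to 319 (Olig3, lowest without F0_9). The cause was not tested.

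The CNS Neuron level was 2.41 (Neurod1) and 0.123 (Ptf1a) outside mitochondrial and ribosomal protein genes, and 1.61 and 0.135 as a mean over cells. Shares here are of CNS Neuron cells, but of Neuronal Progenitor cells for Ptf1a, Olig1 and Olig2. Shares of cells with 2 or more UMIs were 16.5% (Neurog1), 27.6% (Neurog2), 30.3% (Neurod1), 14.8% (Neurod4), 2.18% (Ptf1a), 0.670% (Olig1) and 8.83% (Olig3). Thinned to 2000 UMIs the shares were 10.5%, 20.3%, 19.96% and 7.72% in that order, 4.90% (Atoh1), 1.34% (Ptf1a), 1.17% (Olig1), 2.35% (Olig2) and 4.71% (Olig3), and thinned to 5000 they were 18.1%, 29.7%, 36.5%, 16.9%, 1.70% (Olig1) and 10.3% (Olig3).

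Values that did not pass the test changed sign. With a suspension left out, the founder minus F1 value in CNS Neuron ranged from -0.31 to 0.052 for Neurod1 and from -0.037 to 0.26 for Ptf1a, both reversed without F0_9. With against without a member, it ranged from -0.63 to 0.018 for Neurod1 by Neurog2 (reversed without F0_9, and 0.044 when thinned), from -0.87 to 0.19 for Olig3 by Neurod4 (without F1_mix), from -0.47 to 0.072 for Neurog2 by Ptf1a (without F0_8) and from -1.36 to 0.31 for Olig3 by Ptf1a (without F1_1). Olig3 by Neurog1 was 0.030 when thinned, and Neurod1 by Olig2 was 0.10 without the block. Without the block the calls of Neurog1 by Neurog2 and by Ptf1a, Ccbe1 by Ptf1a, and Brinp1 and Fgf17 by Olig2 were lost, and with DESeq2 that of Rspo3 by Neurog2. Members that did not pass were called with no filter (Olig3 and Neurod4 by Neurog2, Olig3 by Neurod1, Neurog2 by Olig2, Neurog1 by Olig3), when thinned (Neurod4 by Neurog2, Neurog2 by Neurod4), without F0_8 (Olig3 by Neurod1, Neurog2 by Olig2, Neurog1 by Olig3), without F0_9 (Olig3 by Neurod1) or without F1_1 (Olig3 by Neurog2). For the generations no paired analysis was possible because each suspension belongs to 1 generation.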

Other observations

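The 328 barcodes that were assigned to a suspension but are not in the authors' cell table held members at levels of 0.266 (Neurog1, 47 UMIs), 0.441 (Neurog2, 78 UMIs), 0.385 (Neurod1, 68 UMIs) and 0.0905 (Olig3, 16 UMIs), with 8 UMIs of Olig2, 4 of Olig1, 1 each of Neurod4 and Atoh1, and 0 of Ptf1a. In droplets of 1 to 100 gene UMIs, which hold free RNA, the levels were 0.154 (Neurog1), 0.284 (Neurog2), 0.214 (Neurod1) and 0.0602 (Olig3), and in those of more than 100 and up to 300 gene UMIs they were 0.123, 0.239, 0.315 and 0.0524. For all 9 members the lower bound of the exact 95% interval in the 328 barcodes lay under the highest upper bound in the droplets, which does not show that the levels were alike.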
